A study of Danio rerio with 12 samples.

Results

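The enzymes with which the liver makes, stores and releases glucose were followed in whole zebrafish larvae at 120 hours post fertilization (hpf). Rows were chosen by gene symbol, and 8 enzymes among the 32520 genes in the tables are described. They are pck1 (ENSDARG00000013522), pck2 (ENSDARG00000020956), fbp1a (ENSDARG00000021366), fbp1b (ENSDARG00000020364), fbp2 (ENSDARG00000012366), g6pca.1 (ENSDARG00000031616), pygl (ENSDARG00000002197) and gys2 (ENSDARG00000004904). A further enzyme, g6pcb, had no row under its own symbol. The human symbol G6PC1 was carried by 2 further identifiers, and since it was not given which of them is g6pcb, both are described by identifier alone.

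RNA sequencing compared 6 pools of homozygous elmo3 knockout larvae (elmo3-/-) with 6 pools of wild type larvae (elmo3+/+), each pool of 30 larvae. By the study's methods, the knockout is a CRISPR/Cas9 deletion in exon 2 of elmo3 that shifts the reading frame, and all fish carried the endothelial reporter Tg(fli1:EGFP). Littermates are named there as controls for knockout experiments, in the section on adult fish. Elmo3 belongs to a family of adaptor proteins that work with DOCK proteins to activate the GTPase Rac1. Each value averages whole bodies, so that the liver is a small part of each sample. Nothing in the labels says that the pools came from separate matings, and p-values therefore measure only the spread between these pools. Total counts were 16851426 to 17577126 per sample, and 3 counts, taken as the floor, stood for 0.171 to 0.178 CPM (counts scaled to a common library total), counting error only. The share of counts from mitochondrially encoded genes was 6.59% to 8.99% in elmo3+/+ and 7.28% to 10.3% in elmo3-/-, and elmo3+/+ replicate 1 held the 8.99%, apart from the other wild type pools. The targeted gene itself could not check the labels: elmo3 (ENSDARG00000042126) had 1.26 to 2.78 TPM (transcript abundance scaled by length and to a common total) in elmo3+/+ and 1.24 to 2.63 in elmo3-/-.

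Gluconeogenesis rebuilds glucose from lactate, amino acids and glycerol by running much of glycolysis backwards. Its own enzymes bypass the steps of glycolysis that cannot be reversed. Pyruvate carboxylase and the phosphoenolpyruvate carboxykinases Pck1 (cytosolic) and Pck2 (mitochondrial) lead to phosphoenolpyruvate, fructose-1,6-bisphosphatases (Fbp) remove a phosphate from fructose-1,6-bisphosphate, and glucose-6-phosphatase frees glucose for release into the blood. Liver glycogen phosphorylase (Pygl) breaks glycogen down and liver glycogen synthase (Gys2) builds it, so that these enzymes set the balance between storage and release.

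The 8 enzymes had very different levels. Per transcript length, fbp1b was the most abundant with 44.4 ± 20.9 TPM (mean ± SD over all 12 pools). It was followed by pck1 with 31.4 ± 12.7, fbp2 with 22.3 ± 5.19, pck2 with 17.9 ± 7.49 and fbp1a with 16.98 ± 2.09 TPM. The glycogen enzymes were lower, with 9.61 ± 6.40 TPM for pygl and 4.38 ± 2.88 for gys2. At the bottom stood g6pca.1 with 1.35 ± 1.09 TPM. Neighbours in this order were compared within pools by two-sided exact sign-flip permutation tests, with p-values adjusted over the 7 pairs. fbp1b exceeded pck1 in 10 of 12 pools (adjusted p = 0.00456), fbp1a exceeded pygl in 10 (0.00769), pygl exceeded gys2 in 12 (0.00171) and gys2 exceeded g6pca.1 in 12 (0.00171). In contrast, pck1 and fbp2 (0.0763), fbp2 and pck2 (0.0745), and pck2 and fbp1a (0.831) did not differ beyond their spread. Only neighbours were tested here, and pck1 and pck2 are compared further on. With the 6 wild type pools alone no pair passed, and the exact sign-flip permutation test of 6 pools cannot go below p = 0.0312.

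Compared to elmo3+/+, no member passed the threshold of an adjusted p of 0.05 in the edgeR quasi-likelihood test. The count was 0 of 8, against 21 of 21127 genes tested (0.0994%), with 12 of them higher and 9 lower in the knockout. On the TPM scale with limma and a pseudocount of 1, 9 genes were higher and 11 lower. At an unadjusted p under 0.05, 3 of 8 members were lower in elmo3-/-, namely pygl, gys2 and fbp1b, and 0 were higher. Over all genes tested 4.95% were lower by this rule. DESeq2 also gave 0 members past the adjusted threshold and 3 at an unadjusted p under 0.05, although it called 49 genes in all. By the unadjusted rule 1011 of the 21127 genes were lower in DESeq2. The estimates of all 8 members lay below 0, with a median log2 fold change of -0.53, while 48.9% of all genes tested had an estimate below 0 and their median was 0.00 (63.02% with scaling to total counts). Levels and marker sums are given below in TPM. On that scale, by limma on log2(TPM + 1), 69.2% of all genes lay below 0. Their median was -0.06, and that of the members was -0.49. These 8 estimates do not count as 8 separate observations, since most of the members rose and fell together from pool to pool. In 0 of 8 members were the genotypes free of overlap, against 0.431% of all genes tested. The count of 3 members became 5 without elmo3+/+ replicate 1, without elmo3+/+ replicate 3 or without elmo3-/- replicate 5, and was 2 to 5 over all pools left out in turn. The number over all genes also rose in these 3 fits. It was 1594 of 21290, 1645 of 21285 and 1236 of 21268 genes lower by this rule, against 1045 of 21127 with all pools.

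**Figure D1:**
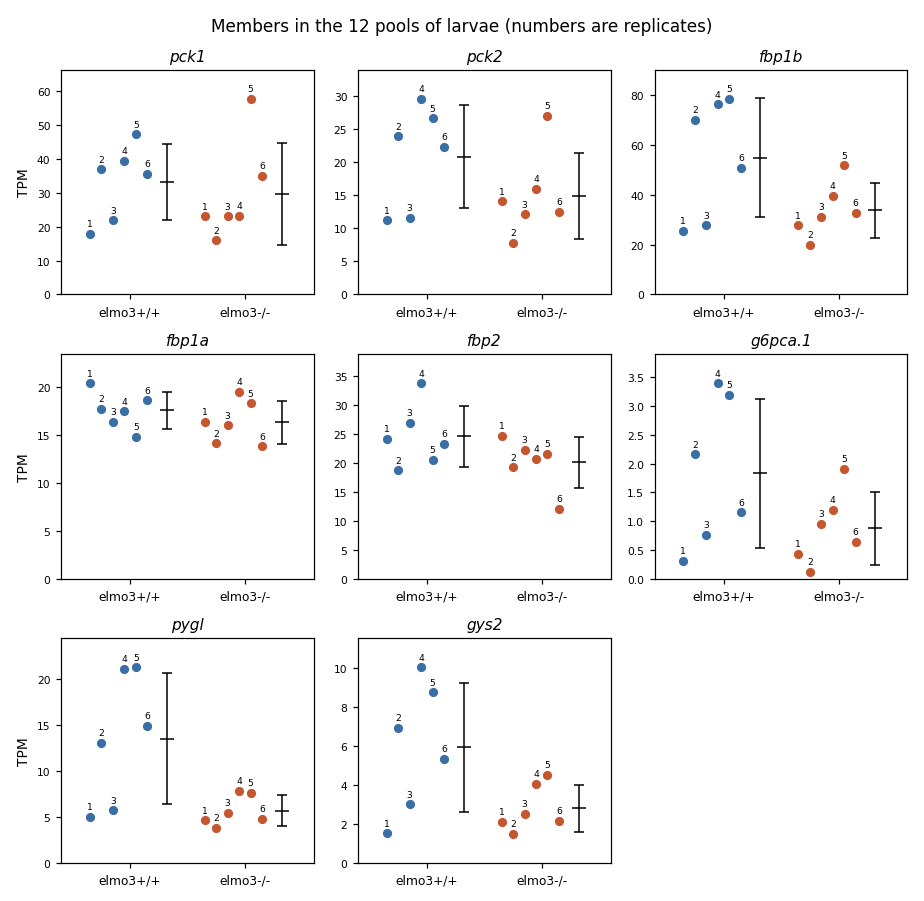
TPM of the 8 enzymes in each pool of larvae, 1 panel per gene with its own axis from 0. Points are pools with their replicate number, and the bar beside each group is the mean with SD (n = 6). In pygl, wild type replicates 1 and 3 lie at 5.02 and 5.70 TPM beside the elmo3-/- pools, and the other 4 wild type pools at 13.1 or more.

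The glycogen enzymes showed the lowest knockout to wild type ratios beside g6pca.1. Glycogen phosphorylase pygl had a lowest, median and highest level of 5.02, 14.0 and 21.3 TPM in elmo3+/+ and of 3.82, 5.13 and 7.83 TPM in elmo3-/-. Wild type replicates 2, 4, 5 and 6 lay above all 6 knockout pools, but replicates 1 and 3 lay among them. The estimate for pygl was a log2 fold change of -1.18 ± 0.31 (SE), a ratio of 0.443, with an unadjusted p of 0.00175 and an adjusted p of 0.439 in edgeR. Glycogen synthase gys2 had 1.51, 6.14 and 10.1 TPM in elmo3+/+ and 1.499, 2.34 and 4.52 TPM in elmo3-/-. The same 4 wild type pools were above all knockout pools, and wild type replicate 1 was close to the lowest knockout pool. Its log2 fold change was -1.01 ± 0.36 (edgeR, unadjusted p = 0.0134, adjusted p = 0.499). The enzyme that breaks glycogen down and the enzyme that builds it therefore had estimates of the same sign, and the difference in their ratio was within the spread between pools. The log2 ratio of gys2 to pygl averaged -1.23 ± 0.33 (SD) over the 6 wild type pools and -1.08 ± 0.21 over the 6 knockout pools (two-sided exact permutation test, p = 0.335, adjusted p = 0.450 over 3 ratios).

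Among the enzymes of the phosphoenolpyruvate step, the cytosolic pck1 had 17.9, 36.3 and 47.3 TPM (lowest, median, highest) in elmo3+/+ and 16, 23.1 and 57.6 TPM in elmo3-/-. The highest of all 12 pools was elmo3-/- replicate 5 and the lowest elmo3-/- replicate 2, and 5 of 6 knockout pools lay below the wild type median, with replicate 5 the exception. The log2 fold change of pck1 was -0.08 ± 0.26 (edgeR adjusted p = 0.936), and it came out at 0.05 without elmo3+/+ replicate 5 and at -0.37 without elmo3-/- replicate 5. The mitochondrial pck2 had 11.2, 23.1 and 29.5 TPM in elmo3+/+ and 7.77, 13.3 and 27.0 TPM in elmo3-/-. As in pck1, 5 of 6 knockout pools lay below the wild type median, and elmo3-/- replicate 5 was the exception. Its log2 fold change was -0.42 ± 0.26 (edgeR adjusted p = 0.608). pck1 exceeded pck2 in TPM in 12 of 12 pools. The log2 ratio of pck1 to pck2 averaged 0.69 ± 0.17 in wild type and 0.97 ± 0.33 in knockout pools (exact permutation test, p = 0.0909, adjusted p = 0.273).

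The 3 fructose-1,6-bisphosphatase genes behaved in different ways. fbp1a and fbp1b are copies of the gene whose mammalian counterpart is the liver form, and fbp2 is named after the mammalian muscle form. fbp1b had 25.7, 60.6 and 78.5 TPM in elmo3+/+ and 19.8, 31.9 and 51.9 TPM in elmo3-/-. All 6 knockout pools lay below the wild type median, 3 wild type pools lay above every knockout pool, and wild type replicates 1, 3 and 6 were within the knockout range. The log2 fold change of fbp1b was -0.64 ± 0.26 (edgeR, unadjusted p = 0.0264, adjusted p = 0.499). fbp1a was the steadiest member, with 14.8 to 20.4 TPM in elmo3+/+ and 13.8 to 19.5 TPM in elmo3-/- (log2 fold change -0.04 ± 0.10, adjusted p = 0.926). Its coefficient of variation between pools was 10.9% in elmo3+/+ and 13.7% in elmo3-/-, against 43.5% and 32.4% for fbp1b. fbp2 had 18.7 to 33.7 TPM in elmo3+/+ and 12.02 to 24.7 TPM in elmo3-/- (log2 fold change -0.21 ± 0.17, adjusted p = 0.699). In the RefSeq gene table of the assembly GRCz12tu, fbp1a and fbp2 are adjacent genes with 0 coding genes between them, and fbp1b lies on the same chromosome 227 coding genes from fbp2. None of the members shares a chromosome with elmo3 in that table. The log2 ratio of fbp1b to fbp2 ranged from 0.04 to 1.94 in elmo3+/+ and from 0.05 to 1.45 in elmo3-/- (exact permutation test, adjusted p = 0.450).

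Glucose-6-phosphatase carries out the last step of gluconeogenesis and of glycogen breakdown. g6pca.1 was counted 5, 35, 12, 54, 52 and 19 times in elmo3+/+ replicates 1 to 6 and 7, 2, 16, 19, 30 and 10 times in elmo3-/- replicates 1 to 6. The 2 counts in elmo3-/- replicate 2 were below the floor of 3. On the TPM scale it had 0.314 to 3.40 in elmo3+/+ and 0.120 to 1.91 in elmo3-/-, and its coefficients of variation were 70.5% and 72.5%. The log2 fold change of g6pca.1 was -0.99 ± 0.52 (edgeR, unadjusted p = 0.0781, adjusted p = 0.564). Of the 2 identifiers with the human symbol G6PC1, ENSDARG00000013721 was far more abundant than g6pca.1, with 16.1 to 33.5 TPM in elmo3+/+ and 11.3 to 36 TPM in elmo3-/- (log2 fold change -0.33 ± 0.22, adjusted p = 0.632). ENSDARG00000014967 had 0 to 5 counts per pool, did not pass the filter and was not tested. The submitters name kallisto for the processing, but how well reads were split between related glucose-6-phosphatase genes was not tested. Their separate levels are therefore uncertain.

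**Figure D2:**
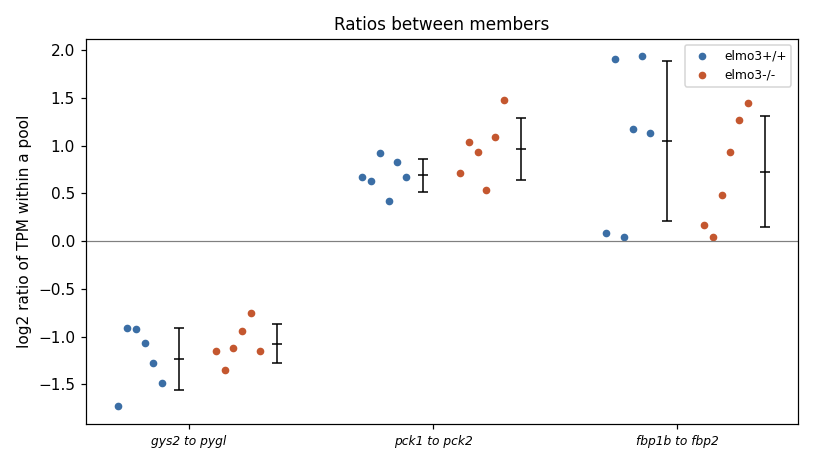
Log2 ratio of TPM within each pool for 3 pairs of members, with the mean and SD of each genotype (n = 6) as a bar. A value of 0 means equal TPM. The genotypes overlap in all 3 ratios, and pck1 exceeds pck2 in all 12 pools.

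Most of the members moved together from pool to pool. After the mean of each genotype had been taken off the log2 CPM values, 15 of the 28 pairs of members were correlated over the 12 pools (permutation test of Pearson's r, adjusted p under 0.05), and all 15 correlations were positive. They were the 15 pairs of pck1, pck2, fbp1b, g6pca.1, pygl and gys2, in which the median r was 0.89. The highest was that of fbp1b with gys2 (r = 0.95, rho = 0.97, each with the smallest p that 100000 resamples can give, 1e-05). It was 0.95 within elmo3+/+ and 0.95 within elmo3-/-, and 0.94 without the 2 pools farthest from the median of fbp1b. pygl and gys2, with opposite functions, were correlated by 0.95 (rho 0.99), and by 0.95 within elmo3+/+ and 0.99 within elmo3-/-. In contrast, 0 of the 13 pairs with fbp1a or fbp2 passed by Pearson's or by Spearman's coefficient, with r from -0.31 to 0.53. Within elmo3+/+ alone r of these pairs was -0.81 to 0.12, and within elmo3-/- alone -0.23 to 0.82. For fbp1a with gys2 it was -0.77 and 0.64, with g6pca.1 -0.81 and 0.42, and with pck1 -0.67 and -0.003. The difference between the genotypes in r was not tested. By Spearman's rho, 15 of the 28 pairs passed.

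**Figure D3:**
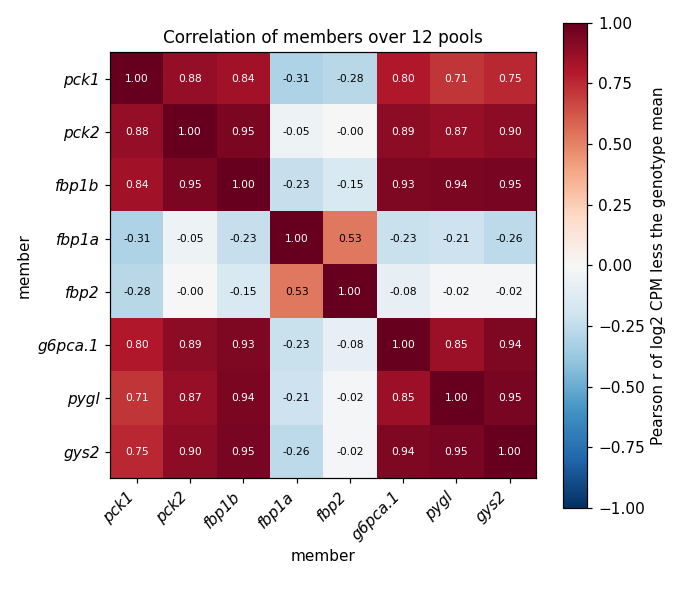
Pearson's r of each pair of members over 12 pools, on log2 CPM less the genotype mean. The block of high values holds pck1, pck2, fbp1b, g6pca.1, pygl and gys2, with r from 0.71 to 0.95, and the rows of fbp1a and fbp2 hold r from -0.31 to 0.53.

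These shared movements went along with the level of hepatocyte genes. The summed TPM of 14 hepatocyte marker genes, such as fabp10a and tfa, was 1455, 4317 and 5627 (lowest, median, highest) in elmo3+/+ and 1017, 2018 and 3346 in elmo3-/-. Its largest parts were fabp10a, with 1358 ± 612 TPM in elmo3+/+ and 689 ± 282 in elmo3-/-, and apoa2, with 1308 ± 705 and 633 ± 340. In the sum, wild type replicates 1 and 3 were lowest of their genotype with 1455 and 2085, as in pygl, gys2 and fbp1b. All 14 marker genes were detected, 14 of 14 had an estimate below 0 and 10 were lower at an unadjusted p under 0.05, but 0 passed the adjusted threshold in edgeR or in any alternative, and the difference in their log2 summed level was within the spread of the pools (-0.81, exact permutation test over genotypes, p = 0.0801, adjusted p = 0.160 over 6 lists). With genotype means taken off, g6pca.1 (r = 0.97, rho = 0.97), fbp1b (0.96, rho 0.99), gys2 (0.95, rho 0.95), pck2 (0.92, rho 0.94), pygl (0.90, rho 0.94) and pck1 (0.85, rho 0.83) followed the hepatocyte sum, with adjusted p-values of at most 0.00084 for r and 0.00296 for rho over 24 relations in permutation tests. Within elmo3-/- alone, r was 0.99 for g6pca.1, 0.97 for fbp1b, 0.93 for gys2, 0.88 for pygl, 0.86 for pck2 and 0.74 for pck1, and within elmo3+/+ it was 0.96 to 0.98 for these 6 genes. Without the 2 pools farthest from the median of the hepatocyte sum, r stayed between 0.80 and 0.96. In contrast, fbp1a (r = -0.24, adjusted p = 0.638) and fbp2 (r = -0.21, adjusted p = 0.638) did not follow it over the 12 pools. Within elmo3+/+ and elmo3-/- alone, r was -0.71 and 0.36 for fbp1a and -0.33 and -0.13 for fbp2. In RNA from whole larvae, fewer hepatocytes and less RNA per hepatocyte cannot be told apart.

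**Figure D4:**
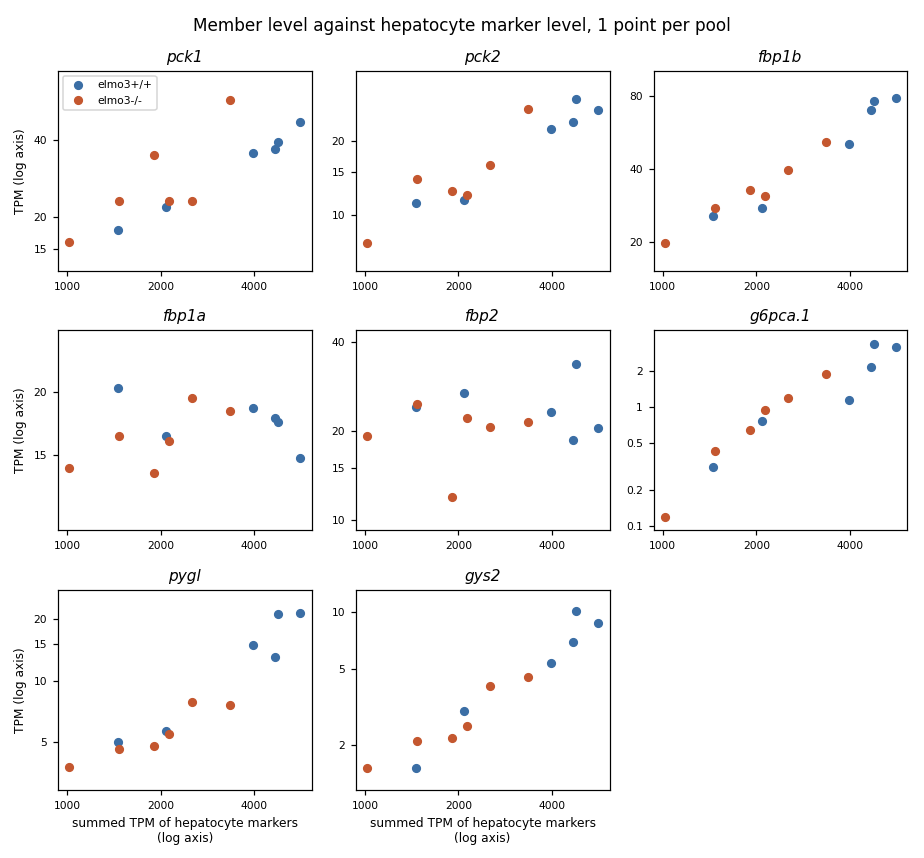
TPM of each member against the summed TPM of 14 hepatocyte markers, both on log axes, with 1 point per pool and colours for genotype. Pools of both genotypes lie along the same rising trend in fbp1b, g6pca.1 and gys2, and no trend common to both genotypes is seen in fbp1a or fbp2.

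Marker genes of other digestive tissues moved in the same pools. The summed TPM of 9 enterocyte genes was 523 to 2007 in elmo3+/+ and 413 to 1215 in elmo3-/-, with 7 of 9 genes lower at an unadjusted p under 0.05 and 0 past the adjusted threshold. The largest part of this sum was the apolipoprotein gene apoa1a, with 722 ± 359 TPM in elmo3+/+ and 353 ± 181 in elmo3-/-. Whether that RNA came from the intestine or from other tissues such as the liver was not tested. The vertebrate intestine is also known to express gluconeogenic enzymes. The same 6 members correlated with the enterocyte sum by r of 0.86 to 0.93 and rho of 0.87 to 0.92 (permutation tests, adjusted p of at most 0.000655 for r and 0.00124 for rho), and by r of 0.62 to 0.84 within elmo3-/- alone. Without the 2 pools farthest from the median of the enterocyte sum, r was 0.82 to 0.91. pck1 had a higher r with the enterocyte sum (0.89) than with the hepatocyte sum (0.85), and the other 5 a higher r with the hepatocyte sum, such as g6pca.1 (0.97 against 0.91) and gys2 (0.95 against 0.89). Within elmo3-/- alone, gys2 had 0.93 against 0.68 and pygl 0.88 against 0.62. Within elmo3+/+ alone, all 6 had the higher r with the enterocyte sum, such as gys2 (0.980 with hepatocytes against 0.986) and pygl (0.956 against 0.971). The difference between these correlations was not tested. The sum of 7 acinar pancreas genes was 366 to 1527 in elmo3+/+ and 356 to 1109 in elmo3-/-. The sums of fast muscle (30116 to 33857 against 28936 to 39289) and proximal pronephros markers (37.4 to 54.1 against 35.5 to 47.7) varied less. So did the islet sum (205.2 to 247 against 181 to 227), but its largest part was neurod1. That gene had 152.1 ± 23.3 TPM in elmo3+/+ and 152.7 ± 26.1 in elmo3-/-. The insulin gene ins had 29.8 ± 15.1 TPM in elmo3+/+ and 16.96 ± 7.62 in elmo3-/-. Of the 7 islet genes, 6 had an estimate below 0 and 3 were lower at an unadjusted p under 0.05. The islet sum therefore does not show whether islet RNA was steady. Most of the pronephros sum was SLC20A1 (ENSDARG00000010641), with 32.1 ± 2.73 TPM in elmo3+/+ and 29.8 ± 2.95 in elmo3-/-. For its level cubn varied more, with 2.23 ± 0.916 and 1.74 ± 0.669 TPM. The pronephros sum therefore does not show whether pronephric RNA was steady either. The largest part of the muscle sum was pvalb1, with 19539 ± 1089 and 20870 ± 2437 TPM. No member correlated with the muscle sum. No marker gene of the 6 lists was at 0 in all pools. The smallest p-values of each list belonged to VTN (ENSDARG00000055388, log2 fold change -1.22) and ambp (-1.19) for hepatocytes, chia.1 (-0.95) and fabp2 (-0.68) for enterocytes, prss1 (-0.67) and ela2l (-0.62) for acinar pancreas, pcsk2 (-0.22) and ins (-0.73) for islets, pvalb1 (0.18) and ckma (0.11) for muscle, and SLC20A1 (ENSDARG00000020114, -0.38) and LRP2 (ENSDARG00000102506, 0.16) for the pronephros, none past the adjusted threshold. The part of these tissues in the estimates of the members was not tested. The model with hepatocyte markers described next cannot test it, since 6 members followed the hepatocyte sum and that sum had a lower median in elmo3-/-.

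When the log2 hepatocyte sum was added to the edgeR model, a comparison chosen after seeing the data, the estimates of 6 members rose, to nearer 0 or past it, and those of fbp1a (-0.08 ± 0.11) and fbp2 (-0.29 ± 0.19) lay slightly further below 0. pygl was at -0.32 ± 0.18, gys2 at 0.01 ± 0.16 and fbp1b at 0.07 ± 0.10, against -1.18, -1.01 and -0.64 with genotype alone. pck1 changed sign to 0.48 ± 0.16, which had an unadjusted p of 0.00861 but an adjusted p of 0.9997. With this covariate, 1 of 8 members was at an unadjusted p under 0.05 and 0 passed the adjusted threshold. Over the 21127 genes tested, 809 were at an unadjusted p under 0.05 in this model. With 1 surrogate variable estimated from all genes, each of the 8 estimates moved in the same direction as with the covariate, to -0.47 ± 0.19 for pygl, -0.17 ± 0.19 for gys2 0.35 ± 0.21 for pck1, -0.06 ± 0.11 for fbp1a and -0.23 ± 0.18 for fbp2. In both models the estimates of fbp1a and fbp2 moved by less than 0.1.

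**Figure D5:**
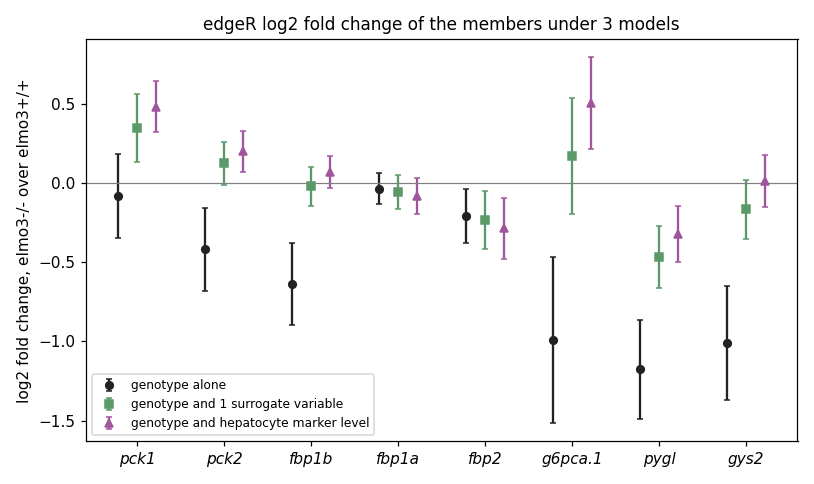
Log2 fold change of elmo3-/- over elmo3+/+ for the 8 members in edgeR, with genotype alone, with 1 surrogate variable and with the hepatocyte marker level, bars giving the SE. With genotype alone all 8 estimates are below 0, and with the hepatocyte level 3 of 8 are.

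The genes most like 7 of the members across the 12 pools (g6pca.1, with a mean count of 21.8, was left out) were searched among 16047 genes with a symbol and a mean count of at least 50, by Pearson's r on log2 CPM less the genotype mean. For fbp1b they were apoa1b (r = 0.99), C20H6orf58 (ENSDARG00000090722, 0.99) and serpina1l (0.99), and for gys2 they were the complement gene c9 (0.99), APOB (ENSDARG00000042780, 0.99) and SERPINC1 (ENSDARG00000042684, 0.99). pygl was most like slc2a2, a glucose transporter gene (0.97), glud1b (0.97) and RPN1 (ENSDARG00000059323, 0.96). pck2 was closest to GNMT (ENSDARG00000006840, 0.97), ALDH9A1 (ENSDARG00000069100, 0.97) and ABCB11 (ENSDARG00000070078, 0.97). The nearest genes to pck1 were GPR39 (ENSDARG00000102888, 0.97), the chitinase gene chia.2 (0.96) and G6PC1 (ENSDARG00000013721, 0.96). For fbp1a the nearest genes were csf1b (0.93), zgc:113162 (0.90) and COL8A1 (ENSDARG00000003533, 0.90), and for fbp2 they were si:ch211-135n15.2 (0.89), dnajb6b (0.88) and pros1 (0.87). The number of genes at r of 0.9 or more was 334 for fbp1b, 230 for pck2, 208 for gys2 and 141 for pygl, against 20 for pck1, 2 for fbp1a and 0 for fbp2. These likenesses are descriptions over 12 pools, and the same 12 pools underlie every r.

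The rest of the pathway was read from 4 lists. The list of the other genes of gluconeogenesis also held g6pc3 and ENSDARG00000013721, which is described above, from the same step as g6pca.1. Among its 30 tested genes, 0 passed the adjusted threshold, 3 were lower and 0 higher at an unadjusted p under 0.05, and the median log2 fold change was -0.05. The smallest p-values were those of an alanine aminotransferase gene, GPT (ENSDARG00000019541, -0.49 ± 0.17, adjusted p = 0.499), and of a pyruvate carboxylase gene, PC (ENSDARG00000051939), with 6.15 ± 3.24 TPM in elmo3+/+ and 3.30 ± 1.62 in elmo3-/- (-0.82 ± 0.33, adjusted p = 0.499). The other PC entry, ENSDARG00000098766, had 13.3 ± 2.26 TPM in elmo3+/+ and 11.1 ± 1.48 in elmo3-/- (-0.07 ± 0.06, edgeR adjusted p = 0.714). The other GPT entry, ENSDARG00000055642, was at -0.13 ± 0.17 (edgeR adjusted p = 0.824). Of 29 other glycogen genes 0 passed, with 4 higher and 2 lower at an unadjusted p under 0.05 and a median of -0.03. They were led by GAA (ENSDARG00000116493), a lysosomal glucosidase gene, at 0.84 ± 0.23 (adjusted p = 0.489), and by GYG1 (ENSDARG00000059391), a glycogenin gene, at 0.19 ± 0.07 (adjusted p = 0.499).

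The next list held genes that oppose gluconeogenesis or let glucose into the liver. It also held fructose enzymes (khk, tkfc) and genes of lipid synthesis (fasn, acaca, srebf1). Of its 16 tested genes, 0 passed, 2 were higher and 0 lower at an unadjusted p under 0.05, and the median was 0.01. These 2 encode enzymes that make and degrade fructose-2,6-bisphosphate, a brake on fructose-1,6-bisphosphatase. pfkfb3 was at 15.4 ± 3.18 TPM in elmo3+/+ and 23.1 ± 4.70 in elmo3-/-, and 5 of 6 knockout pools lay above all wild type pools (0.49 ± 0.13, edgeR unadjusted p = 0.00149, adjusted p = 0.408). PFKFB4 (ENSDARG00000029075) was at 0.36 ± 0.12 (adjusted p = 0.489). Of the same family, pfkfb1 was at 0.10 ± 0.14 (edgeR adjusted p = 0.829) and pfkfb4a at -0.12 ± 0.08 (0.630). Over the list, 9 estimates lay above 0 and 7 below. Among those below were pklr (-0.50 ± 0.24) and slc2a2 (-0.48 ± 0.26). Whether fructose-2,6-bisphosphate itself differed was not tested. Among 46 genes of hormonal and transcriptional control 0 passed, with 7 higher and 2 lower at an unadjusted p under 0.05 and a median of 0.03. The smallest p-values belonged to the clock gene PER1 (ENSDARG00000056885, 0.36 ± 0.10, adjusted p = 0.489) and to the insulin receptor substrate gene IRS2 (ENSDARG00000075282, 0.24 ± 0.08, adjusted p = 0.489). Over all genes tested, 4.58% were higher and 4.95% lower by the unadjusted rule.

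The ratio of counts to TPM, which reflects the transcript length the quantification assumed, was examined for a change in the forms of each transcript. Relative to the median gene of each pool it varied by 0.286% (fbp2) to 1.19% (pck1) between pools. In 0 of 8 members did it differ between genotypes (two-sided exact permutation tests, smallest adjusted p = 0.353), and 0 of 8 had an unadjusted p under 0.05.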

How the data were processed

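Total RNA of whole larvae was sequenced on a BGISEQ-500, and the submitters' processing notes name Trim Galore 0.6.4, kallisto 0.4.6 and the genome build GRCz11. The authors deposited 1 table of estimated counts (expected counts, not scaled between samples) and 1 table of TPM, scaled by transcript length and to a common total, per sample. Estimated counts were rounded to whole numbers. Symbols were matched without regard to case through a table of identifiers that named 29201 of the 32520 genes (89.8%), in which many zebrafish genes carry the human symbol.

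elmo3-/- was compared with elmo3+/+ by edgeR 4.0.16 in R 4.3.3 (quasi-likelihood test, TMM scaling, filterByExpr, genotype only), with Benjamini-Hochberg adjustment over 21127 genes and a threshold of 0.05. Log2 CPM values had a prior count of 2. Ratios were compared by exact permutation over 462 divisions of the pools (smallest possible p = 0.00216), and correlations by 100000 resamples in SciPy 1.17.1. On simulated counts of 21127 genes with 200 changed by a log2 fold change of 1, 94.5% were recovered and 3.57% of calls were false. The changed genes were drawn from those with a mean count of at least 50, and genes were simulated independently of each other. The share recovered was not estimated for the members, which move together and include g6pca.1 with a mean count of 21.8. The SE of their estimates was up to 0.52 (g6pca.1), and pygl at -1.18 ± 0.31 and gys2 at -1.01 ± 0.36 did not pass. The 94.5% therefore cannot be taken as the share for the members. Alternatives were DESeq2 1.42.0, scaling by total counts or the upper quartile, a minimum mean count of 10 or no minimum, a replicate block, 1 surrogate variable (sva 3.50.0), limma 3.58.1 on log2(TPM + 1) and log2(TPM + 0.1), and each pool left out.

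Named genes were the members, elmo3, from each list the genes past the threshold or else the 2 with the smallest p, and the 3 genes most like each member with a mean count of at least 50. Other genes named were chosen after their values were seen. The members, lists and tests were chosen with earlier results of these data known. No sequences are shown, and 1 further enzyme and 1 pathway gene are not reported here and were left out of the counts and adjustments over the members and lists.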

Additional observations from a re-analysis of the deposited data

Results flagged for a closer look

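In 40 series of 6 pools (levels of the members, ratios, summed markers, total counts and mitochondrial shares, by genotype), 1 had a pool far from the others, and chance alone gives about 1 in 20. The mitochondrially encoded share of counts in elmo3+/+ replicate 1 was 8.99%, with the next wild type pool at 7.19%.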

How the results depend on the processing

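No member and no gene of the pathway or marker lists passed the adjusted threshold under any alternative or with any pool left out. DESeq2 called 49 genes over all, against 21, and the other alternatives and left-out pools 17 to 23. With 1 surrogate variable the estimates of pck1 (0.35), pck2 (0.12) and g6pca.1 (0.17) changed sign, and with the hepatocyte marker covariate, added after seeing the data, those of pck1 (0.48), pck2 (0.20), fbp1b (0.068), g6pca.1 (0.50) and gys2 (0.0103). The cause was not tested. With each pool left out, the log2 fold change was -0.373 to 0.05005 for pck1 and -0.0763 to 0.0284 for fbp1a, and the other 6 stayed below 0. The difference in log2 ratio (elmo3-/- less elmo3+/+) was 0.17 to 0.36 for pck1 to pck2, 0.06 to 0.22 for gys2 to pygl and -0.52 to -0.14 for fbp1b to fbp2, with none past the threshold.

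Same-numbered pools correlated by -0.29 to 0.39 and 3 of 6 matched their own number best, which does not settle whether they were pairs. The labels name no pairs, and the numbers were not taken as such. With the replicate block edgeR called 17 genes and 0 members. At an unadjusted p under 0.05 it put 4 of 8 members lower in elmo3-/-, against 3 with genotype alone. Over the 21127 genes tested, 1200 were lower by this rule with the block and 1045 with genotype alone. In the ratio of pck1 to pck2, whose mean difference of 0.28 is the same by construction, all 6 same-numbered differences were positive, and the adjusted p of the exact sign-flip permutation test was 0.0938, against 0.273 unpaired.

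Taken as counts without division by length, the log2 level of fbp1b over pck1 was -0.52, of pck1 over fbp2 1.54, of fbp2 over pck2 -1.15, of pck2 over fbp1a 1.17 and of fbp1a over pygl 0.22, which follows from the transcript lengths. In the wild type pools alone the log2 differences were 0.67 (fbp1b over pck1), 0.15 (pck2 over fbp1a), 0.59 (fbp1a over pygl), 1.23 (pygl over gys2) and 1.86 (gys2 over g6pca.1), with none past the threshold. The number of correlated pairs was 15, and 15 on log2(TPM + 1). Without the 2 farthest pools it was 16. There the 15 pairs of pck1, pck2, fbp1b, g6pca.1, pygl and gys2 had r from 0.727 to 0.950. Outside these pairs the r farthest from 0 was negative, -0.689 for pck1 with fbp1a. Depth limits g6pca.1 most, with 2 to 54 counts per pool.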
